A study of Arabidopsis thaliana with 6 samples.

Results

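The miRNAs described here are 31 mature sequences of 22 to 24 nt, out of 294 mature miRNA sequences counted, that belong to none of the well-known or separately grouped Arabidopsis families. They were chosen by family number and by sequence length alone, a rule that uses no measured value, although the set was drawn up with earlier results of these data known. The excluded families run from the conserved miR156 and its followers, such as miR319, miR390 and miR408, to younger ones such as miR825, miR858, miR863 and miR2111. Of the other 263 sequences, 138 come from similarly little-known families but are 21 nt or shorter, 112 come from the excluded families at 21 nt or shorter, and 13 come from those families at 22 to 24 nt. All libraries were made from Arabidopsis thaliana seedlings of one line, in which a Flag-tagged wild-type BRI1, the cell-surface receptor of brassinosteroids, is expressed from its native promoter in the receptor mutant bri1-5. Seedlings in shaking liquid culture received 1 µM epibrassinolide (epiBL), an active brassinosteroid hormone, or the solvent alone (control), and were harvested after 90 min. Each group held 3 biological replicates. No source says whether they came from separate cultures, so a p-value covers only the spread among the libraries, part of which may be technical. Seedlings are whole plants, so fewer cells producing a miRNA and less of it per cell cannot be told apart.

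A plant miRNA is cut from a hairpin transcript by a Dicer-like enzyme, and most are 21 nt long. Sequences of 22 nt are known for starting the production of secondary small RNAs from the transcripts they cleave, whereas small RNAs of 24 nt are typically made by another Dicer-like enzyme and guide DNA methylation at repeats. Young, lineage-specific miRNA genes are generally weakly expressed, and many have no established target.

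Sequence totals in this set were small. The 31 sequences together held 2352 of 22187728 reads, which is 0.0106% of all reads that matched a mature miRNA exactly. Reads per library totalled 3732417, 4112329 and 2050074 with epiBL and 4482479, 3878714 and 3931715 in controls. A count of 3, taken as the limit of detection for counting error only, equalled a counts-per-million value (CPM) of 0.730 to 1.46 with epiBL and 0.669 to 0.773 in controls. Every one of the 15 pairs of libraries differed by more than sampling noise, with a chi-square of at least 32.7 per degree of freedom. By this value epiBL replicate 2 was nearer to the controls than to its own group. It was 117, 75.9 and 51.5 with control replicates 1, 2 and 3, against 191 and 170.5 with epiBL replicates 1 and 3.

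The 9 sequences with enough reads to be tested are printed first because the hormone comparison rests on them. They are given 5′ to 3′ as DNA letters, as in the deposited table, with bases 2 to 8, the seed, in capitals.
miR850-5p: tAAGATCCggactacaacaaag
miR840-5p: aCACTGAAggacctaaactaac
miR848-3p: tGACATGGgactgcctaagcta
miR830-5p: tCTTCTCCaaatagtttaggtt
miR447a-5p: tTGGGGACgagatgttttgttg
miR777-3p: tACGCATTgagtttcgttgctt
miR8166-5p: aGAGAGTGtagaaagtttctca
miR5654-3p: tGGAAGATgctttgggatttatt
miR5629-3p: tTAGGGTAgttaacggaagtta

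The 24 nt sequences with reads are shown for contrast, since that length is the one usual for small RNAs of repeats.
miR5653-3p: tGGGTTGAgttgagttgagttggc
miR8121-5p: aAAGTATAatggtttagtggtttg
miR405a/b/d-3p: aTGAGTTGggtctaacccataact

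No seed was shared within the set. The seed of miR5653-3p was also that of miR398b/c-5p, an excluded sequence. Of the 31, 20 began with T (U in the RNA), 8 with A, 2 with C and 1 with G. Among the 24 nt sequences 3 of 5 began with A, against 5 of 24 at 22 nt. No other sequence in the table lay within 2 single-base edits of any of the 31. The closest was miR845a-3p, which is 3 edits from miR845b-3p. Reads of another sequence in the table with 1 sequencing error therefore could not have been counted as any of them. Near copies elsewhere in the genome were not searched for.

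Of the 31, 24 were 22 nt, 2 were 23 nt and 5 were 24 nt long. At least 1 read was found for 25 of them, and 17 were found in all 6 libraries. The 22 nt sequences held 2194 reads, the 23 nt sequences 93 and the 24 nt sequences 65. The most abundant pair, miR850-5p and miR840-5p, together took 44.0% of the set's reads, and the 6 with over 100 reads took 79.2%. A further 8 sequences had 10 reads or fewer in all libraries together. The most abundant, miR850-5p, ranked 94 among the 294 sequences by mean CPM, and miR840-5p ranked 95.

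**Figure D1:**
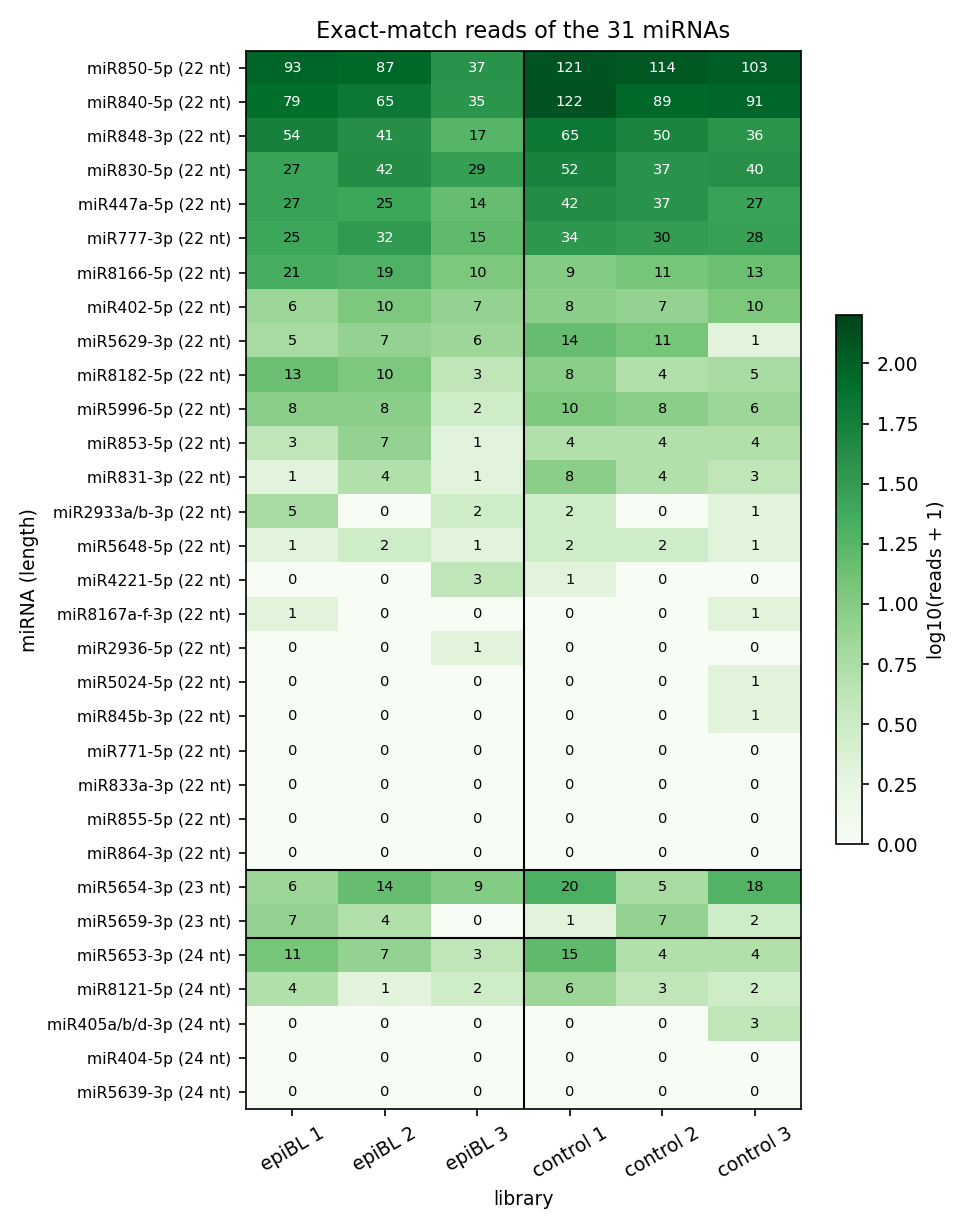
Exact-match reads of each of the 31 sequences (rows, grouped by length) in each library (columns), with darker shades for more reads on a log10(reads + 1) scale. Reads concentrate in the upper 22 nt rows, from 37 to 93 reads of miR850-5p with epiBL and from 103 to 121 in controls, while 6 rows are 0 throughout.

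By total reads alone, the set summed to 106, 93.6 and 96.6 CPM in the epiBL libraries and 121, 110 and 102 CPM in the control libraries, a mean of 98.9 ± 6.67 CPM with epiBL and 111 ± 9.73 CPM in controls (SD, n = 3 each). The highest epiBL library lay above the lowest control library, so the groups overlapped. The 22 nt sequences summed to 92.0 ± 6.09 CPM with epiBL and 104 ± 8.76 CPM in controls (SD, n = 3 each). The 23 nt sequences summed to 4.08 ± 0.520 CPM with epiBL and 4.29 ± 1.05 CPM in controls, and the 24 nt sequences to 2.80 ± 1.08 CPM with epiBL and 2.93 ± 1.54 CPM in controls. The groups overlapped at every length. The 13 sequences of equal length from the excluded families, which include several known triggers of secondary small RNAs such as miR173-5p, summed to 2682 ± 227 CPM with epiBL and 2980 ± 125 CPM in controls (SD, n = 3 each), again overlapping. Sums of the 138 shorter sequences of little-known families were also lower with epiBL and did not overlap. They were 3099 ± 272 CPM with epiBL and 3507 ± 40.6 CPM in controls (SD, n = 3 each). A lower sum was therefore not particular to the set. Over all libraries the median sequence had a mean of 0.885 CPM in the set of 31, against 129 CPM among those 13 and 0.372 CPM among those 138.

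The comparison of epiBL with solvent asks which of these miRNAs respond to the hormone within 90 min. Levels below are counts scaled to library size and composition (TMM) and given as CPM. None of the 9 tested sequences passed at an adjusted p under 0.05 in edgeR, where 8.11% of all 148 sequences did. DESeq2 also gave 0 of the 9, where it called 16 of the 148 (10.8%). At an unadjusted p under 0.05 it was 1 of the 9, miR8166-5p, where 23.6% of all sequences tested were under that value. Groups did not overlap in 1 of the 9, again miR8166-5p, against 27.7% of all sequences tested. That sequence met the filter of the test only with the help of the epiBL libraries, as given below. The median log2 fold change of the 9 was -0.09, with 3 positive and 6 negative values, and that of all 148 was 0.0046. The sign of the set's median was not stable. It was 0.0111 in DESeq2 and -0.195 with total-count scaling. Of the tests that dropped 1 library, which took in 9 to 11 of the 31, it was highest at 0.169 on dropping control replicate 1 and lowest at -0.167 on dropping epiBL replicate 3. It was also positive on dropping epiBL replicate 1 (0.134) or epiBL replicate 2 (0.0798). Their median SE was 0.28, against 0.15 over all sequences tested, and their median level was 7.64 CPM, against 49.4 CPM.

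**Figure D2:**
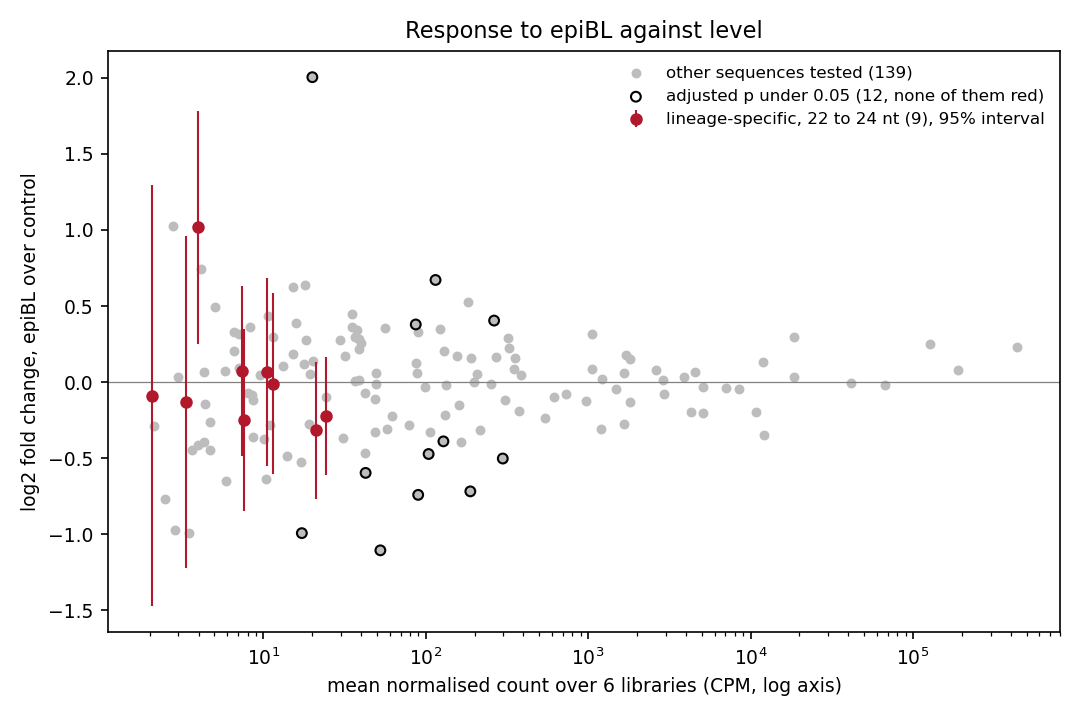
Log2 fold change (epiBL over control) against mean CPM on a log axis for the 148 tested sequences, with the 9 lineage-specific sequences of 22 to 24 nt in red with their 95% intervals, the others in grey and those with an adjusted p under 0.05 circled. The red points lie between 2.06 and 24.3 CPM, and the interval of only miR8166-5p among them leaves out 0.

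The closest to a response was miR8166-5p. It had 21, 19 and 10 reads with epiBL and 9, 11 and 13 reads in controls. After scaling these were 5.94, 4.41 and 5.59 CPM with epiBL and 2.01, 2.57 and 3.15 CPM in controls. All epiBL libraries lay above all control libraries on the scaled level. In unscaled reads epiBL replicate 3, the library with the fewest reads in all, lay among the controls. The mean was 5.31 ± 0.804 CPM with epiBL and 2.58 ± 0.570 CPM in controls (SD, n = 3 each). The log2 fold change was 1.02 (SE 0.36, 95% interval 0.25 to 1.78), a 2.02-fold higher level, with an unadjusted p of 0.0130 that did not pass adjustment over all 148 sequences tested (edgeR quasi-likelihood test, Benjamini-Hochberg adjusted p = 0.0833). In the authors' deposited table its unadjusted p-value is 0.00609.

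Over 12 alternative settings the log2 fold change of miR8166-5p stayed between 0.87 and 1.19. Its adjusted p ran from 0.0365 to 0.232 and passed in 1 setting, in which only sequences with 10 reads in every library of a group were tested and 10.6% of all 142 sequences passed. It met that filter only through the epiBL group, where it is higher, since control replicate 1 had 9 reads, so that call is no support for a change. The filter of the main test counted libraries of either group. Control replicate 1 fell below its minimum, so the controls alone would not have met it, and the main test carries a like limit. Without a filter the log2 fold change was 1.02 (SE 0.43, edgeR adjusted p = 0.156). The sequence is not unique: it matched the TAIR10.1 assembly at 13 places, of which 1 lies in the annotated MIR8166 precursor, on chromosome 1 at 4525316-4525337, minus strand, outside other genes. Among the other matches, that on chromosome 2 at 631149-631170 lies in the 3′ UTR of GSTZ1, a glutathione transferase gene, on the same strand. It also lies in the 3′ UTR of AT2G02400 on the opposite strand. Another, on chromosome 1 at 24948257-24948278, lies in an intron of AT1G66880 on the opposite strand, and the rest lie outside other genes. Reads cannot be assigned to any of the 13 places. In a predicted fold of the annotated precursor, 16 of its 22 bases were paired, where the median of the 31 sequences was 86.4% of bases paired.

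miR850-5p had 93, 87 and 37 reads with epiBL and 121, 114 and 103 in controls. This corresponded to 26.3, 20.2 and 20.7 CPM with epiBL and 27.0, 26.6 and 25.0 CPM in controls. The library of epiBL replicate 1 lay among the controls, and the other epiBL libraries lay below them. Its log2 fold change was -0.22 (SE 0.18, adjusted p = 0.469 in edgeR), and the 95% interval ran from 0.657 to 1.12 of the control level, which leaves out a change of 2-fold in either direction. It was -0.12 without epiBL replicate 2 and -0.34 without epiBL replicate 1. It lies on chromosome 4 at 7845756-7845777, plus strand, in an intron of the non-coding transcript AT4G13495. The MIR850 precursor ends 669 bases before that of MIR863 on the same strand. miR863-3p, from the excluded families and named for its position, had a log2 fold change of -0.60 (adjusted p = 0.0275 in edgeR). The difference between these neighbours was not tested.

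miR840-5p had 79, 65 and 35 reads with epiBL and 122, 89 and 91 in controls. Scaled, it had 22.4, 15.1 and 19.6 CPM with epiBL and 27.3, 20.8 and 22.1 CPM in controls, so the groups overlapped through epiBL replicate 1. The miRNA gene is known to act on a pentatricopeptide-repeat gene and on WHIRLY3, and it lies within the 3′ UTR of the pentatricopeptide-repeat gene AT2G02750 on the same strand (miR840-5p at chromosome 2, 771492-771513, minus strand). The log2 fold change was -0.32 (SE 0.21, adjusted p = 0.367 in edgeR), with a 95% interval from 0.588 to 1.10 of the control level. It was -0.13 without epiBL replicate 2 and -0.18 without control replicate 1.

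miR848-3p, in an intron of AT5G13890 (chromosome 5, 4479448-4479469, minus strand), had 15.3, 9.51 and 9.50 CPM with epiBL and 14.5, 11.7 and 8.73 CPM in controls. The groups covered nearly the same range, and the log2 fold change was -0.01 (SE 0.28, edgeR adjusted p = 0.979). It was positive under 6 of 12 alternative settings, among them 0.17 without epiBL replicate 2, 0.08 without epiBL replicate 3 and 0.19 without control replicate 1. miR830-5p, outside other genes (chromosome 1, 4820473-4820494, minus strand), had 7.64, 9.75 and 16.2 CPM with epiBL and 11.6, 8.65 and 9.70 CPM in controls. Replicate 3 of epiBL was its highest library and replicate 1 its lowest, and the log2 fold change was 0.07 (SE 0.29, edgeR adjusted p = 0.919). It was negative under 3 of 12 settings, among them -0.17 without epiBL replicate 3 and -0.03 without control replicate 2. miR777-3p, in the 5′ UTR of AT1G70650 (chromosome 1, 26638083-26638104, plus strand), had the narrowest range of the 3, at 7.08, 7.43 and 8.39 CPM with epiBL and 7.60, 7.01 and 6.79 CPM in controls. Its log2 fold change was 0.07 (SE 0.26, edgeR adjusted p = 0.919), and the 95% interval ran from 0.714 to 1.55 of the control level. It turned negative when libraries were scaled by total counts, a scaling that placed the median of all sequences at -0.13.

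miR447a-5p, one of a family described further below, had 27, 25 and 14 reads with epiBL and 42, 37 and 27 in controls. This was 7.64, 5.80 and 7.83 CPM with epiBL and 9.39, 8.65 and 6.55 CPM in controls. Control replicate 3 lay within the epiBL libraries, and the edgeR adjusted p was 0.615. The log2 fold change of -0.25 ranged from -0.37 on dropping control replicate 3 to -0.08 on dropping epiBL replicate 2, and was -0.13 on dropping control replicate 1.

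The 2 least abundant of the tested sequences varied more between replicates than between groups. miR5654-3p, the most abundant of the 23 nt sequences, had 6, 14 and 9 reads with epiBL and 20, 5 and 18 in controls. Its mean was 3.33 ± 1.67 CPM with epiBL and 3.33 ± 1.88 CPM in controls (SD, n = 3 each), with a log2 fold change of -0.13 (SE 0.51, edgeR adjusted p = 0.919). This became positive with any of epiBL replicate 1 (0.22), control replicate 1 (0.17) or control replicate 3 (0.11) left out. It lies in the 5′ UTR of AT1G32583 (chromosome 1, 11786348-11786370, plus strand). miR5629-3p, in the 3′ UTR of NDL2 (chromosome 5, 3802933-3802954, plus strand), had 5, 7 and 6 reads with epiBL and 14, 11 and 1 in controls. Its mean was 2.13 ± 1.06 CPM with epiBL and 1.98 ± 1.53 CPM in controls (SD, n = 3 each), while the fitted log2 fold change was -0.09 (SE 0.65, edgeR adjusted p = 0.941), of opposite sign to the difference of means, and the 95% interval ran from 0.361 to 2.45 of the control level. That interval includes changes of 2-fold in both directions. For miR5654-3p it ran from 0.428 to 1.94 of the control level, which includes a 2-fold decrease and leaves out a 2-fold increase.

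**Figure D3:**
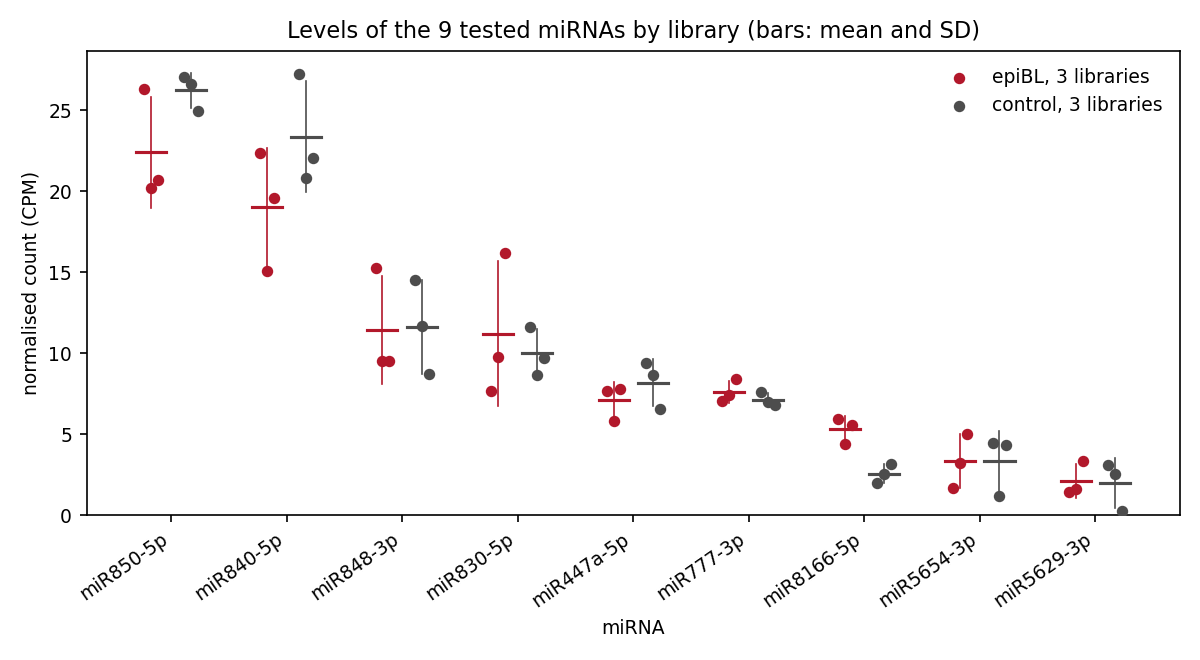
Normalised counts (CPM) of the 9 tested sequences in each library, epiBL in red to the left of control in grey for each, with horizontal bars at the mean and vertical bars of 1 SD (n = 3). The groups overlap for every sequence except miR8166-5p, at 4.41 to 5.94 CPM with epiBL and 2.01 to 3.15 CPM in controls.

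The other 16 sequences with reads were too scarce for the test and are given as reads. miR8182-5p, in the 5′ UTR of AT3G61270, had 13, 10 and 3 reads with epiBL and 8, 4 and 5 in controls. miR402-5p, known to act on a DNA demethylase gene, had 6, 10 and 7 reads with epiBL and 8, 7 and 10 in controls. It lies in an intron of AT1G77230. Scaled to CPM, both overlapped between the groups. miR5653-3p, the most abundant 24 nt sequence, had 11, 7 and 3 reads with epiBL and 15, 4 and 4 in controls, which is 3.11, 1.62 and 1.68 CPM with epiBL and 3.35, 0.935 and 0.970 CPM in controls. Replicate 1 was the highest library of each group. Among the rarer 22 nt sequences, miR5996-5p had 8, 8 and 2 reads with epiBL and 10, 8 and 6 in controls, and it lies in the 5′ UTR of UNE15. miR853-5p had 3, 7 and 1 reads with epiBL and 4, 4 and 4 in controls, and miR831-3p had 1, 4 and 1 with epiBL and 8, 4 and 3 in controls. Reads of all 3 were found in every library. The 23 nt miR5659-3p, from the shortest annotated precursor of the set (59 nt), had 7, 4 and 0 reads with epiBL and 1, 7 and 2 in controls. miR8121-5p, also 24 nt, had 4, 1 and 2 reads with epiBL and 6, 3 and 2 in controls. Reads of miR2933a/b-3p numbered 5, 0 and 2 with epiBL and 2, 0 and 1 in controls, and those of miR5648-5p numbered 1, 2 and 1 with epiBL and 2, 2 and 1 in controls. Fewer still were those of miR4221-5p (3 with epiBL and 1 in controls), miR8167a-f-3p (1 with epiBL and 1 in controls) and miR2936-5p (1 with epiBL and 0 in controls). The 3 reads of miR405a/b/d-3p, a sequence known from transposon-like repeats, all came from control replicate 3. A fit without the filter on low counts gave a value for all 25 sequences with reads. None of them passed there in edgeR, where 5.06% of all 257 sequences did. At an unadjusted p under 0.05 it was 1 (miR8166-5p), where 17.5% of all were, and miR8182-5p was at a log2 fold change of 1.01 (SE 0.59, adjusted p = 0.379 in edgeR).

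No exact read was found for miR404-5p, miR5639-3p, miR771-5p, miR833a-3p, miR855-5p or miR864-3p, which limits each to 0.135 CPM over the 6 libraries together, for counting error only. miR855-5p is known from a long terminal repeat retrotransposon family and matched the genome at 45 places, the most of the 31. Of the 31, 24 matched a single place. The mutant bri1-5 comes from the Wassilewskija accession and not from the reference accession, and whether sequence differences between them removed exact reads was not tested. By the position of the first annotated precursor of each, 17 of the 31 sequences lay outside other genes, 6 in introns and 6 in UTRs on the same strand as the gene, 1 in an intron of a gene on the opposite strand, and 1, miR2936-5p, in the coding sequence of SAG21 on the same strand. Exact reads from such host transcripts would be counted with the miRNA, and their part in the counts was not tested.

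Predicted folds of the annotated precursors placed each of the 31 sequences wholly on 1 side of a stem. This was not particular to the set. It also held for all 138 shorter sequences of little-known families, and in the excluded families for all 13 of equal length and 111 of the 112 shorter ones. The paired share of bases ran from 70.8% for miR404-5p to 95.8% for miR405a/b/d-3p and miR5639-3p. The median was 86.4% in the set, 87.0% among the 13 sequences of equal length from the excluded families and 90.5% among the 138 shorter sequences of little-known families. The predicted free energy per 100 nt of precursor ranged from -63.1 kcal/mol for MIR5639, whose 24 nt sequence had no read, to -22.6 kcal/mol for MIR8121.

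In the table, 11 sequences of 20 or 21 nt share a family number with one of the 31, and 9 of them match a hairpin that holds one of the 31. None of the 6 that could be tested passed in edgeR, where 8.11% of all sequences did, nor in DESeq2, where 10.8% did. One of the 6, miR833b-5p, had an unadjusted p under 0.05, where 23.6% of all sequences did. Their median log2 fold change was -0.15. For 4 hairpins a sequence of the set and a second product both had over 30 reads.

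At MIR447a, which is known to target a phosphoglycerate kinase-related gene, both products came from the same side of the hairpin. They are shown because the deposited labels place them on opposite arms.
miR447a-5p: tTGGGGACgagatgttttgttg
miR447a-3p: tATGGAAGaaattgtagtatt

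The sequence labelled miR447a-5p lies at 1528190-1528211 on chromosome 4, minus strand, on the 3′ side of the precursor (1528134-1528370), where the RefSeq annotation names it miR447a-3p. The one labelled miR447a-3p lies further along the transcript, at 1528148-1528168, with 21 bases between the products, and is annotated as miR447a.2-3p. Both also match MIR447b. On the 5′ side of MIR447a lies the sequence labelled miR447c-5p (1528312-1528332), which also matches MIR447b and MIR447c and had no read. miR447a-5p was the only 1 of the 31 whose label differed from the side of the precursor that holds it. The 22 nt product took 2.89%, 2.28% and 3.10% of the reads of both with epiBL and 3.05%, 3.64% and 2.76% in controls. It had 7.09 ± 1.12 CPM with epiBL and 8.19 ± 1.47 CPM in controls, and the 21 nt product had 250.0 ± 6.45 CPM with epiBL and 253 ± 39.3 CPM in controls (SD, n = 3 each). Neither passed, with log2 fold changes of -0.25 (SE 0.28) for the 22 nt product and -0.02 (SE 0.11) for the 21 nt one.

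At MIR840 the reads were divided more evenly, so both products are shown.
miR840-5p: aCACTGAAggacctaaactaac
miR840-3p: tTGTTTAGgtcccttagtttc

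The 22 nt arm took 59.9%, 43.1% and 60.3% of the reads with epiBL and 67.4%, 62.2% and 55.5% in controls. The share was lowest in epiBL replicate 2, which was the only one in which miR840-3p had more reads than miR840-5p. The log2 ratio of 5p to 3p reads differed by -0.44, epiBL minus control (SE 0.31, limma adjusted p = 0.419). miR830-5p (22 nt) took 85.7% ± 11.9 with epiBL and 88.6% ± 1.81 in controls of the reads of MIR830 (SD, n = 3 each), with only 34 reads of miR830-3p. At MIR5654 the 23 nt sequence was the scarcer one, at 31.6%, 31.1% and 29.0% with epiBL and 32.8%, 19.2% and 43.9% in controls. Of the 3 pairs with one of the 31 that could be tested, none passed in limma at an adjusted p under 0.05, where 2.22% of all 45 such pairs passed. The miR447a pair is among these by its deposited labels, although both of its products lie on the same side of the hairpin.

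**Figure D4:**
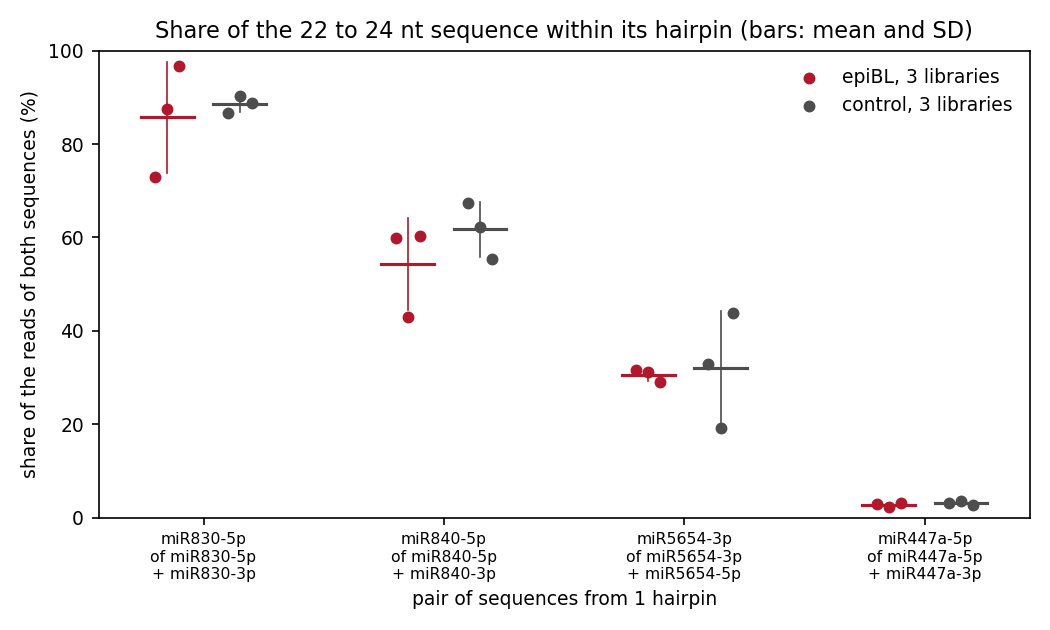
Share of the 22 to 24 nt sequence in the reads of both products of its hairpin, in percent, for each library, with epiBL in red to the left of control in grey and bars of the mean and SD (n = 3). The share runs from 85.7% with epiBL and 88.6% in controls at MIR830 to 2.76% with epiBL and 3.15% in controls at MIR447a, and the groups overlap at each hairpin.

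At the locus of miR833a-3p, the genome holds a miRNA gene on each strand. The sequences are shown because they are complementary over most of their length.
miR833a-3p: tAGACCGAtgtcaacaaacaag
miR833b-5p: tGTTTGTTgacatcggtctag

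miR833a-3p lies at 29525265-29525286 on chromosome 1, plus strand, and miR833b-5p at 29525264-29525284, minus strand, so that they share 20 bases. The 22 nt miR833a-3p had no read, and the 21 nt miR833b-5p had 84. These were 6, 14 and 3 reads with epiBL and 15, 26 and 20 in controls, or 1.70, 3.25 and 1.68 CPM with epiBL and 3.35, 6.08 and 4.85 CPM in controls. All epiBL libraries lay below all control libraries. The log2 fold change was -0.99 (SE 0.41), which had an unadjusted p of 0.0302 and did not pass (edgeR adjusted p = 0.154).

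The miR845 family is known for matching the primer-binding site of retrotransposons, and its products here differ in length.
miR845b-3p: tCGCTCTGataccaaattgatg
miR845a-3p: cGGCTCTGataccaattgatg

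The 22 nt miR845b-3p (chromosome 4, 12214086-12214107, minus strand) had 1 read, in control replicate 3. The 21 nt miR845a-3p had 201 reads, at 7.47 ± 1.47 CPM with epiBL and 9.82 ± 1.71 CPM in controls (SD, n = 3 each), with a log2 fold change of -0.36 (SE 0.27, edgeR adjusted p = 0.407). At MIR5024 likewise, the 22 nt miR5024-5p had 1 read and the 21 nt miR5024-3p had 246.

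Among the 13 sequences of 22 to 24 nt from the excluded families, 12 were tested and 0 passed in edgeR, where 8.11% of all 148 did. In DESeq2 2 of the 12 passed, where 10.8% of all did. An unadjusted p under 0.05 in edgeR was found for 3 of the 12, near the 23.6% of all sequences tested. Their median log2 fold change was 0.17, against -0.09 for the 9 described here, whose median was not stable in sign. The difference between these lists was not tested.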

How the data were processed

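Seedling RNA, small fraction included, was extracted with a mirVana kit, made into libraries by the TruSeq small RNA protocol and read on an Illumina GAxII, per the labels' protocols. Raw counts were deposited by the authors as 1 table. Per the file headers a count is the number of reads identical to a mature sequence, so trimmed or extended forms are left out and loci with the same sequence are merged. TAIR10 is the build named in the submitters' processing notes. Trimming, aligner and miRNA database were not given in the sources used here. The deposited table also gives the authors' unadjusted p-value, headed EDGE test, 0 min against 90 min. The labels give 90 min for both groups, and they were followed. PCR copies were counted as reads, so limits cover counting error only.

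Software was R 4.3.3 with edgeR 4.0.16, limma 3.58.1 and DESeq2 1.42.0, Python 3.11.15 and RNAfold 2.7.2. The filterByExpr function (minimum count 10, total 15) kept 148 sequences, 9 of them in the set. All 148 entered 1 TMM-scaled robust quasi-likelihood fit in edgeR (Benjamini-Hochberg adjustment, threshold 0.05). SEs were obtained as log2 fold change over the root of F, and intervals are 95%. The coefficient of biological variation was 10.9%. Over 45 pairs of arms, as labelled in the deposited table, limma compared log2 ratios (pseudocount 0.5). The tests were tried on simulated counts, but no result of that trial is given or relied on here. Sequences were matched exactly to TAIR10.1, with positions counted from 1, and annotated precursors were folded.

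The set and the lists were chosen with earlier results of these data known. Described in full are the 8 tested sequences of highest mean, those with the 3 smallest p-values each way, the most abundant of each length, and other arms. All other names were added after their values were seen, for their reads, position or sequence. Alternatives were 2 other scalings, 2 other filters, DESeq2, a replicate block and leaving out each library.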

Additional observations from a re-analysis of the deposited data

How the results depend on the processing

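None of the 9 tested sequences passed under RLE or total-count scaling, without a filter, in DESeq2, with the replicate block or with any 1 library left out. When 10 counts were required in every library of a group, 1 passed (miR8166-5p, log2 fold change 1.03, adjusted p = 0.0365). It met that filter only through the epiBL group, where it is higher, and the cause of the changed call was not tested. Calls over all sequences numbered 12, against 14 with RLE factors, 17 with total counts, 13 without a filter, 15 with the 10-count filter, 16 in DESeq2, 22 with the replicate block and 5 to 25 when a library was dropped. They numbered 5 on dropping control replicate 2, also 5 on dropping epiBL replicate 3, 7 on dropping control replicate 3 and 25 on dropping epiBL replicate 2. Correlations of deviations between libraries of equal number were -0.094, 0.139 and -0.108. For 2 of 6 libraries the best correlation was with the library of equal number. So few values cannot exclude a pairing, and the main test assumed none. The block changed no call among the 9. Some changes that had not passed turned sign. miR5654-3p was at 0.0059 with the replicate block. Total-count scaling put miR777-3p at -0.041 and miR830-5p at -0.049. miR848-3p was at 0.015 under RLE factors, at 0.0037 with 10 counts in every library of a group and at 0.011 in DESeq2. Dropping a library moved miR5654-3p between -0.53 and 0.22, miR830-5p between -0.17 and 0.30, and miR848-3p between -0.28 and 0.19. In 80 of 95 settings of single sequences both direction and side of the threshold were kept. The difference of -12.3 CPM in the set's sum (epiBL minus control) ranged from -16.9 to -7.18 when a library was dropped. This sum was scaled by total reads alone, which placed the median log2 fold change of all tested sequences at -0.13. Sums of the other lists given above were also lower with epiBL. No arm ratio passed with a pseudocount of 1, with the block or with a library dropped. For the 22 untested sequences, counts were too low for the test.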

Other observations

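The deposited table also names a miRNA in a library where its exact count is 0. Among the 31 sequences this occurred 30 times over the 6 libraries, in 3, 6 and 3 instances with epiBL and in 5, 10 and 3 in controls. The 6 sequences without an exact read were each named in 1 to 4 libraries. The headers do not say which reads lie behind such an entry, and no other match class was analysed here.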
